A study of Papio hamadryas with 17 samples.

Results

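The 6 genes described here encode the enzymes and the transporter that carry out the steps of gluconeogenesis not shared with glycolysis: PC, PCK1, PCK2, FBP1, SLC37A4 and G6PC. They were chosen by name, as the transcripts whose name begins with one of these symbols, out of 9818 genes found in both deposited tables. All 6 passed the filter on low values and were among the 9414 genes tested. LRP2 (megalin), the endocytic receptor of the proximal tubule brush border, served as the reference for proximal tubule content.

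Gluconeogenesis builds glucose from lactate, amino acids and glycerol, and liver and kidney are the main organs that release the product into blood. In the kidney the pathway sits in the proximal tubule, where it uses lactate and the carbon of glutamine. Pyruvate carboxylase and the phosphoenolpyruvate carboxykinases bypass pyruvate kinase, fructose-bisphosphatase bypasses phosphofructokinase, and glucose-6-phosphatase, fed by its transporter in the endoplasmic reticulum, bypasses hexokinase.

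The libraries were made from ultrasound-guided biopsies of kidney cortex of 17 baboons (Papio hamadryas), 8 females and 9 males, none treated, all kept lifelong on low-salt chow and all sedated with ketamine and held under isoflurane for the biopsy. One biopsy was sequenced per animal. The females were aged 15 to 19 and the males 6 to 13 (the labels give no unit, taken as years). Library names formed 1 series in females and 2 in males, called series A (5 males) and series B (4 males). Sex, age and the females' name series therefore cannot be told apart. Female 1, female 2 and male 6 were rich in skeletal muscle RNA: the summed signal of 3 muscle markers held in both tables was 81250.5, 124791.7 and 64095.4 there, against 4.002 to 30.9 in the other 14 libraries. These 3 were set apart, and the comparison of the sexes rests on 6 females and 8 males. Signal is the deposited value per transcript minus its offset of 1, summed per gene over transcripts present in both tables. Because the male table was held in part, this covered 13 of the 19 member transcripts of the female table: both of PCK1, 2 of 3 of PCK2, 6 of 7 of PC, 1 of 5 of SLC37A4 and the single transcripts of FBP1 and G6PC. Signal was not divided by transcript length here, and whether the deposited values already were is not stated. Levels are therefore compared between libraries and not between genes. The total signal was 255529.4 to 311948.7 in the female and 260637.6 to 433540.0 in the male kidney libraries. It was 529036.1 to 659318.9 in the 3 muscle-rich libraries, and read depth is unknown.

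All 12 proximal tubule markers were called lower in the females (limma, as below), with a summed signal of 235.1 to 4220.8 in females and 4194.7 to 9552.4 in males. Female 3 stood apart within its group, with 235.1 against 1733.1 in the next female. Its sums of thick limb (11495.0), collecting duct (987.7) and skeletal muscle markers (30.9) were the highest of the 14 kidney libraries. Its sums of distal convoluted tubule (2.93) and podocyte markers (50.6) were the lowest. The lower proximal tubule markers of females and the marker sums of female 3 move with the results below, and their part in them was not tested. Markers of other cell types were lower in females as well: CLDN16 of 4 thick limb markers (log2 difference -1.21), SLC12A3 of 2 distal convoluted tubule markers (-2.22), and HBA1 (-1.41) and ALAS2 (-1.19) of 4 blood markers, by limma with adjusted p of 0.00369, 0.0212, 0.0422 and 0.0333. None of 5 collecting duct markers was called. With each library divided by its median gene, 8 of the 12 proximal tubule markers and CLDN16 stayed lower and the other 3 named here did not pass. The part of these markers was not tested either. In whole biopsies, fewer proximal tubule cells and less RNA per cell cannot be told apart. Of 7 adipocyte markers 3 were in both tables, with a sum of 0.538 to 3.45 in females and 0.0923 to 2.60 in males, and ADIPOQ, the adipocyte hormone, was at most 0.0988. In the female table alone, LPL was 12.4 to 40.02, PLIN4 3.12 to 22.9, PLIN1 0.829 to 2.998 and LEP 0 to 0.318 in the 6 kidney females. The part of these markers in the results was not tested. Of 9 hepatocyte markers 2 were in both tables, with a sum of 2.16 to 104.7 in females and 19.2 to 150.7 in males, mostly ALB, whose part in the results was not tested.

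All 6 genes had a lower mean in females than in males, and 4 of them, PCK2, FBP1, SLC37A4 and PC, passed the test (limma on log2(signal + 1), Benjamini-Hochberg adjusted over 9414 genes, threshold 0.05). PCK1 and G6PC did not. Over all genes 38.6% were called, 36.3% lower and 2.23% higher in females, and the median gene differed by -0.35 on the log2 scale, against a median of -1.47 over the 6 members. Groups overlapped for all 6 members. LRP2 did not overlap, as for the 11.9% of all genes with every female below every male, at 7.98 to 120.9 in females against 133.7 to 294.5 in males.

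**Figure D1:**
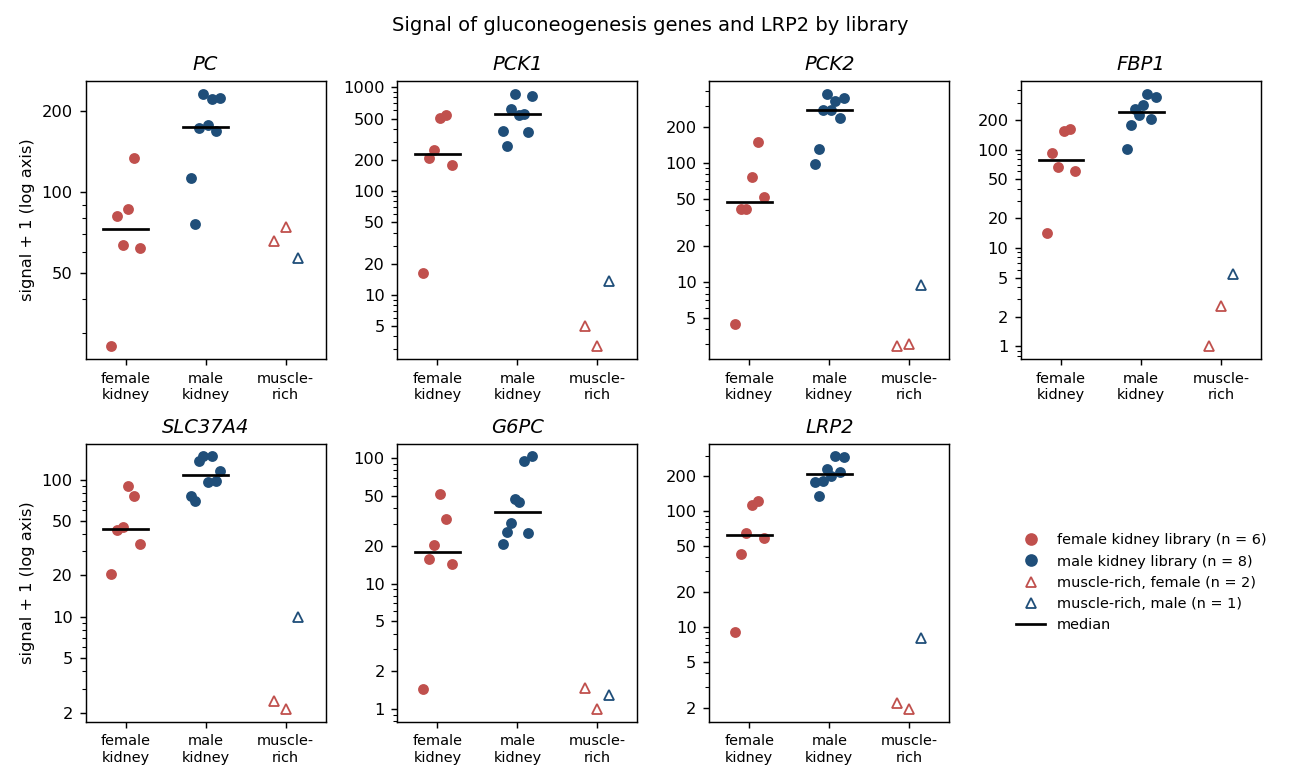
Signal + 1 (log axis) of the 6 genes and LRP2 in each library, as filled circles for 6 female and 8 male kidney libraries with a line at the median, and as open triangles for the 3 muscle-rich libraries. The lowest female circle is female 3 in every panel, and PC is the one member whose muscle-rich libraries (56.0 to 73.2) lie within the kidney range.

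PC, the mitochondrial enzyme that carboxylates pyruvate to oxaloacetate, lies at 7158459 to 7266934 of NC_018165.2 on the plus strand. Its signal was 25.8, 71.8 and 133.6 (lowest, median, highest) in females and 74.9, 174.2 and 231.5 in males, and 6 of 8 males were above all females. Females averaged 74.99 ± 35.6 (SD, n = 6) and males 172.6 ± 55.7 (SD, n = 8). The log2 difference of -1.26 had an SE of 0.317 (limma adjusted p = 0.00542), and by the means males were 2.30-fold higher.

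PCK1, the cytosolic phosphoenolpyruvate carboxykinase that converts oxaloacetate to phosphoenolpyruvate, lies at 6735981 to 6741660 of NC_018161.2 on the minus strand. Its signal was 15.3, 228.7 and 537.6 in females and 269.5, 547.9 and 866.1 in males. Female 6 (504.9) and female 7 (537.6) lay within the male range, and the other 4 females lay below it. The log2 difference was -1.48 (SE 0.597) and missed the threshold (limma adjusted p = 0.0607). It passed when female 6, female 7 or male 2 was left out (limma adjusted p = 0.0336, 0.0287 and 0.0495, with 36%, 37.9% and 42.6% of all genes called).

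PCK2, the mitochondrial isoenzyme of the same reaction, lies at 81157751 to 81168068 of NC_018158.2 on the plus strand and showed the lowest log2 difference of the 6. Its signal was 3.42, 45.5 and 147.1 in females and 96.4, 276.5 and 377.3 in males. Female 7 alone reached into the male range, where male 1 (96.4) and male 2 (130.1) were lowest. The means, 59.3 ± 48.8 (SD, n = 6) and 257.9 ± 100.1 (SD, n = 8), of females and males were 4.35-fold apart, and the log2 difference was -2.55 (SE 0.575, limma adjusted p = 0.00268).

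FBP1, the fructose-1,6-bisphosphatase of liver and kidney, lies at 104358817 to 104393157 of NC_018166.2 on the minus strand. Its signal was 13.0, 78.0 and 159.5 in females and 100.8, 241.1 and 368.1 in males, and male 1 was the only male below the highest female. The log2 difference was -1.69 (SE 0.448, limma adjusted p = 0.00756).

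SLC37A4, which carries glucose 6-phosphate into the endoplasmic reticulum, lies at 108979009 to 108985560 of NC_018165.2 on the minus strand. The 1 transcript in both tables, variant X5, had a signal of 19.7, 42.9 and 88.9 in females and 69.3, 106.2 and 146.5 in males. In the female table this variant held 68.3% to 89.6% of the gene's signal in the 6 kidney libraries. Its log2 difference was -1.23 (SE 0.287, limma adjusted p = 0.00348), and males 1 and 2 were the males within the female range.

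G6PC, the catalytic subunit that releases free glucose, lies at 49789362 to 49803466 of NC_018167.2 on the plus strand. Its signal was 0.450, 16.9 and 50.9 in females and 19.8, 36.3 and 102.2 in males. Only male 7 (94.1) and male 9 (102.2) were above all females, and both belong to series B. The log2 difference was -1.47 (SE 0.624) and missed the threshold (limma adjusted p = 0.0729), which it passed without female 6 (-1.83, limma adjusted p = 0.0301).

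Without female 3, which was lowest for every member, the differences were smaller: -0.77 for PCK1, -0.80 for G6PC, -0.99 for PC, -0.997 for SLC37A4, -1.22 for FBP1 and -1.92 for PCK2. The same 4 genes passed the limma threshold there, where 41.6% of all genes did. Dividing each library by its median gene moved the median difference of all genes to 0.03 and changed the calls over all genes from 210 higher and 3421 lower to 1383 higher (14.7%) and 1408 lower (15%). Under that scaling all 6 members still had negative differences, between -0.77 and -2.10, but only PCK2 passed (-2.10, limma adjusted p = 0.0172, 29.6% of all genes called). With all 17 libraries PC and PCK2 passed, where 13.6% of genes did.

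The females were also compared with the males of each name series apart. PCK2 (-2.35) and SLC37A4 (-1.14) passed against the 5 series A males (20.5% of genes called by limma). Against the 3 series B males PCK2 (-2.89), FBP1 (-2.04), PC (-1.58) and SLC37A4 (-1.38) passed (32% called). No female belongs to series A or B, so name series still differed between the groups. The ranges of the male series overlapped for each member. G6PC was 19.8 to 46.02 in series A and 24.3 to 102.2 in series B. PCK1 was 269.5 to 866.1 in series A and 369.6 to 828.2 in series B. No gene was called between the series by limma (0 of 9414, percent called 0, 682 at an unadjusted p under 0.05), and the members' differences, B minus A, were 0.16 to 0.97.

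With age as a further term no member passed, and 1 gene in all did (0.0106%, 516 at an unadjusted p under 0.05, limma). The differences of all 6 members stayed negative, from -0.37 for PCK1 to -1.44 for FBP1. Their SE rose to 0.862 to 1.87, from 0.287 to 0.624 without the term. The ages of the sexes do not overlap, so this fit cannot separate age from sex. Within a sex, no gene was called for a slope on age (0% in each; 207 genes in females and 173 in males at an unadjusted p under 0.05, limma). The 6 members' log2 slopes per unit of age were -0.65 to -0.06 in females and -0.04 to 0.05 in males. Female 3, the lowest female for every member, was also the oldest of the 6 kidney females (19). Its part in the female slopes was not tested.

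The 6 genes rose and fell together from library to library, and with LRP2. Over the 14 kidney libraries Pearson's r with LRP2 was 0.930 for PCK1, 0.971 for PCK2, 0.913 for G6PC, 0.947 for FBP1, 0.933 for SLC37A4 and 0.927 for PC. Spearman's rho was 0.785 to 0.938. Among the 15 pairs of members, r was 0.860 (G6PC and PC) to 0.969 (PCK2 and FBP1) and rho 0.815 to 0.956. All 21 relations passed after adjustment (permutation test of 100000 resamples, two-sided, largest adjusted p for r = 0.00018). The median r with LRP2 over 9413 genes was 0.276, and 2.57% of genes reached at least the r of G6PC, the lowest member.

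**Figure D2:**
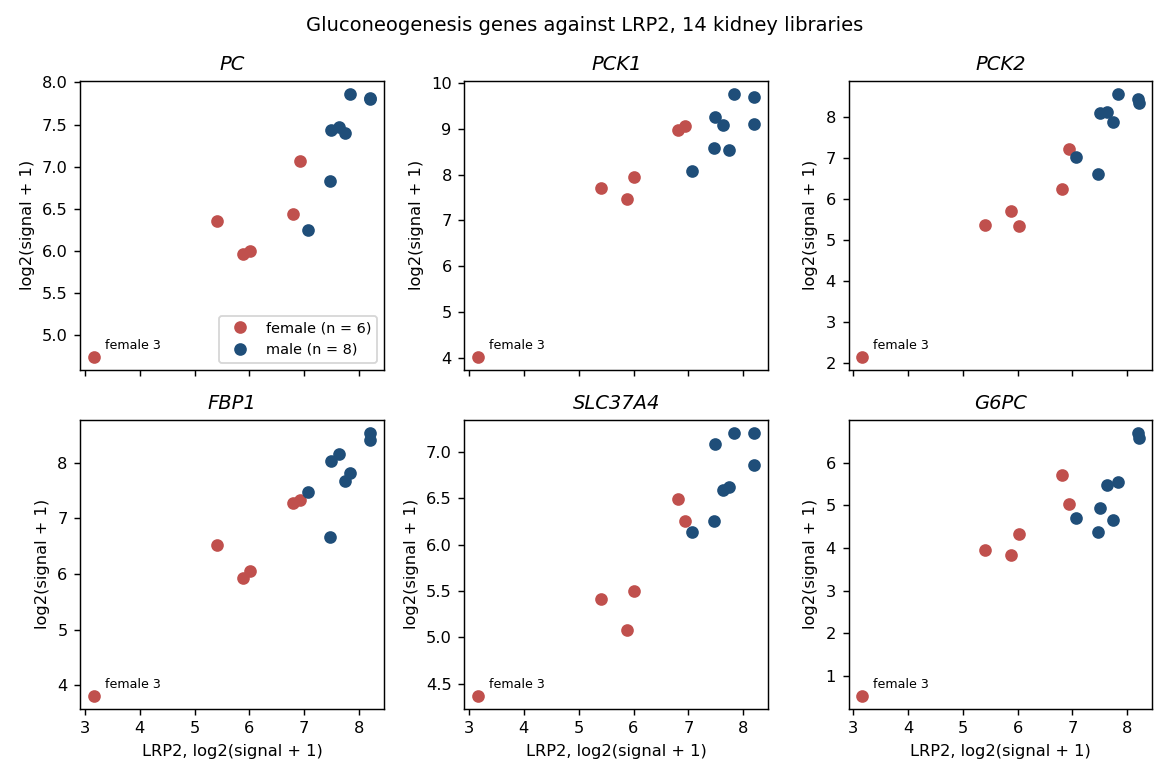
Each of the 6 genes against LRP2, both as log2(signal + 1), in 6 female and 8 male kidney libraries. Points rise together in all panels, with r of 0.913 to 0.971, and female 3 sits apart at the lower left.

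The permutations above ran across both sexes, so the difference between the sexes enters them. With each sex centred on its mean, r with LRP2 over the 14 libraries was 0.844 to 0.954. The median over all genes was then -0.130, and 2.37% of genes reached the lowest member. The relation was also looked at within each sex. Within the 6 females r with LRP2 was 0.911 to 0.986, and all 6 relations passed (exact permutation, two-sided, largest adjusted p = 0.0259). That relation rests in part on female 3 and female 7: without both, r over the remaining 4 females was 0.305 for PC and 0.637 for FBP1, and 0.836 to 0.916 for the other 4 genes. Within the 8 males r was 0.669 to 0.881, and PC (0.881, adjusted p = 0.0175) and G6PC (0.855, adjusted p = 0.0211) passed the exact permutation test while the other 4 did not. Males without male 2 and male 7 gave 0.340 for SLC37A4 and 0.601 to 0.879 for the others. Of the 15 pairs of members, 15 passed in females and 8 in males, and how often pairs of other genes passed was not counted. Without the 2 libraries farthest from the median, r of these pairs was 0.492 to 0.991 in females and 0.254 to 0.948 in males. The median r with LRP2 over all genes was -0.365 in females and 0.418 in males, so 3.62% of genes reached the lowest member in females and 26.1% in males. The difference in r between the sexes was not tested.

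Without female 3, r with LRP2 over 13 libraries was 0.769 (G6PC) to 0.931 (PCK2), against a median of 0.479 over all genes, and 19.4% of genes reached at least the r of G6PC. After leaving out female 3 and female 4, the libraries farthest from the median of LRP2, r was 0.734 to 0.922.

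Set against LRP2 in the same library, the difference between the sexes lay closer to 0 for each member, and it was positive for 5 of the 6. The log2 difference of the ratio to LRP2, female minus male, was 0.53 for PCK1, 0.54 for G6PC, 0.32 for FBP1, 0.78 for SLC37A4, 0.74 for PC and -0.55 for PCK2, with SE of 0.462 to 0.533. No member passed (0 of 6, limma adjusted p = 0.132 to 0.519), whereas 80.8% of all genes did, 7602 higher and 8 lower, and the median gene differed by 1.66. The signal of PCK1 was 3.82 ± 1.16 (SD, n = 6) times that of LRP2 in females and in males 2.58 ± 0.762 times (SD, n = 8), and that of PCK2 was 0.799 ± 0.281 and 1.19 ± 0.351 times. These ratios are read across libraries only. Without female 3, PCK1 (0.73, limma adjusted p = 0.0112) and G6PC (0.71, limma adjusted p = 0.0315) passed as higher relative to LRP2 in females, as did 75.6% of all genes. Female 3 had the lowest G6PC per LRP2 of the 14 libraries (0.0563) and the highest SLC37A4 (2.46) and PC (3.22) per LRP2.

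**Figure D3:**
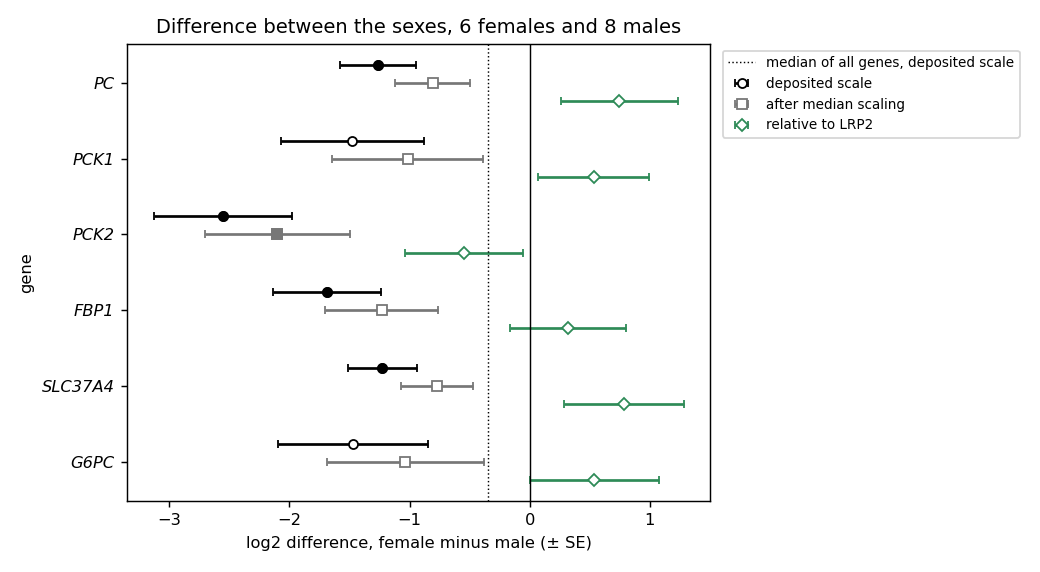
Log2 difference, female minus male, with SE for each gene on the deposited scale (circles), after median scaling (squares) and relative to LRP2 (diamonds), from 6 females and 8 males. Filled symbols passed an adjusted p of 0.05, the dotted line marks the median of all genes at -0.35, and no diamond is filled.

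The ratio of the carboxykinase isoenzymes was higher in most females than in most males. The signal of cytosolic PCK1 was 3.48, 4.84 and 6.76 times (lowest, median, highest) that of mitochondrial PCK2 in females and 1.57, 2.15 and 3.95 times in males. Male 1 (3.95) was the only male within the female range, which began at female 8 (3.48), and female 3 (4.47) lay inside its group. PCK2 variant X2, absent from the male data held, is not in these ratios. In the kidney females it held 0.387% to 27.55% of PCK2 signal, most in female 3, so the order of the females depends on leaving it out. This ratio was picked once its values were known, and no test was made of it.

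The 2 PCK1 transcripts had opposite differences between the sexes, and the longer one was lower in females. Variant X1 ended 344 bases further upstream than the shorter variant X2 on the deposited coordinates, and both shared the other end. Variant X1 had a signal of 8.81, 168.4 and 472.5 in females and 233.1, 528.2 and 861.5 in males, a log2 difference of -1.93 (limma adjusted p = 0.0308, 27.3% of transcripts called). Variant X2 had 6.48, 62.1 and 215.3 in females and 4.69, 18.9 and 45.9 in males, a log2 difference of 1.42 that missed the threshold (limma adjusted p = 0.0766). Variant X2 made up 12.1%, 30.5% and 42.6% of PCK1 signal in females and 0.542%, 4.83% and 13.5% in males. Only female 7 (12.1%) and male 2 (13.5%) lay where the groups overlapped. The log2 difference of X2 relative to X1 was 3.35 (limma's diffSplice, adjusted p = 0.0222, 7.56% of transcripts called). It did not pass without male 4 (2.98, limma adjusted p = 0.0556), without male 9 (3.21, limma adjusted p = 0.0517) or with all 17 libraries (3.10, limma adjusted p = 0.408). Reads in the shared sequence cannot be assigned to either variant, and how the authors divided them is not given in the sources used here.

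**Figure D4:**
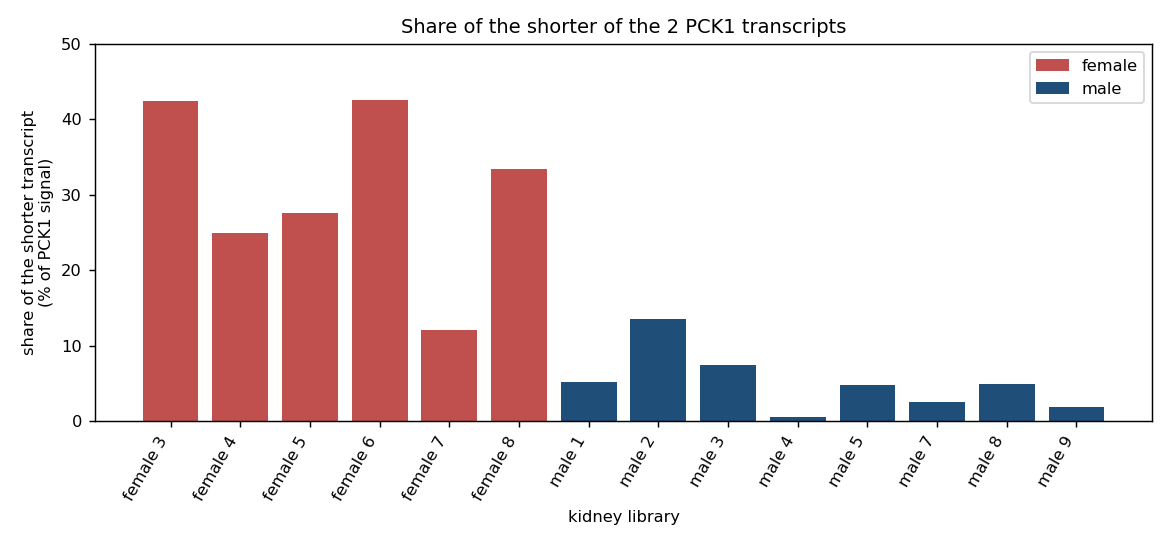
Share of PCK1 signal in the shorter transcript, variant X2, in percent, one bar per kidney library. Females lie between 12.1% and 42.6% and males between 0.542% and 13.5%.

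PCK2 and PC also have several transcripts. PCK2 variant X1 was lower in females (-2.53, limma adjusted p = 0.00421), and variant X2 could not be compared. Variant X3 had a signal of 0.0171, 0.151 and 1.44 in females and 1.62, 5.66 and 21.8 in males. It reached the filter on low values mainly through the males. Its call (-2.26, limma adjusted p = 0.00100) is therefore no separate support. Of the 6 PC transcripts 5 were called lower and variant X8 was not (-0.72, limma adjusted p = 0.126). Among those called, PC variant X5 had a signal of 0.20, 0.50 and 1.1 in females and 0.78, 2.42 and 3.3 in males. PC variant X2 had 0, 1.73 and 2.71 in females and 1.67, 8.41 and 13.36 in males. The female values of both lay near 1, the filter on low values and the amount added before the log. The calls of these PC variants therefore rest on low values and are no separate support either. None of the 8 transcripts compared passed the test of its difference from the rest of its gene (limma's diffSplice, adjusted p = 0.258 to 0.972).

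In the 3 muscle-rich biopsies, given in the order female 1, female 2, male 6, PCK1, PCK2, FBP1 and G6PC were low, as was the 1 transcript of SLC37A4 in both tables. PCK1, FBP1 and variant X5 of SLC37A4 lay below all 14 kidney libraries, and PCK2 and G6PC overlapped kidney at female 3 alone. PCK1 was 4.02, 2.21 and 12.6, against 15.3 to 866.1 in kidney. PCK2 was 1.88, 2.01 and 8.47, against 3.42 to 377.3. Male 6 was the highest of the 3 for both genes, and its thick limb markers (1007.0 against 23.4 and 13.3) and LRP2 (7.04 against 1.18 and 0.946) were also higher than in the female pair. FBP1 was 0, 1.58 and 4.403, and G6PC was 0.473, 0 and 0.294. FBP2, the muscle fructose-bisphosphatase, lies at 104314516 to 104350095 of the same sequence as FBP1. It was 371.8, 540.8 and 318.2, against 0.826 to 6.34 in kidney. G6PC3, the broadly expressed relative of G6PC, was 21.1, 18.6 and 18.2, against 22.1 to 37.5. On the deposited scale FBP1 was thus below its kidney range, FBP2 above its own and G6PC3 below its own. PC was 64.7, 73.2 and 56.0, inside the kidney range of 25.8 to 231.5. Signals here and below were not divided by the total signal of a library. That total was 529036.1 to 659318.9 in the muscle-rich libraries and at most 433540.0 in kidney. The 3 adipocyte markers held in both tables summed to 368.4, 358.1 and 195.6 in these libraries, against at most 3.45 in kidney, so they were high together with the muscle markers, and their part in these values and in the transcript values below was not tested.

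SLC37A4 signal came from different transcripts in the kidney and the muscle-rich libraries. Variant X5, the kidney form, was 1.42, 1.13 and 9.02 in female 1, female 2 and male 6, against 19.7 to 146.5 in kidney. In the female table, variant X1 was 65.04 in female 1 and 163.4 in female 2, against at most 0.400 in the 6 kidney females. Summed over all 5 transcripts, SLC37A4 was 91.1 and 189.6 in these muscle-rich females and 28.8 to 100.2 in the kidney females. On the deposited scale the gene total was thus inside or above the kidney range, and it was not compared per total signal. For PC, variant X4 was 40.4 in female 1 and 18.0 in female 2, against at most 3.53 in the kidney females, and held 38.5% and 19.7% of PC signal there against 1.21% to 3.89%. Male values of SLC37A4 variant X1 and PC variant X4 were not analysed here, and the 3 muscle-rich libraries, chosen by their measured muscle genes, were not tested against kidney.

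**Figure D5:**
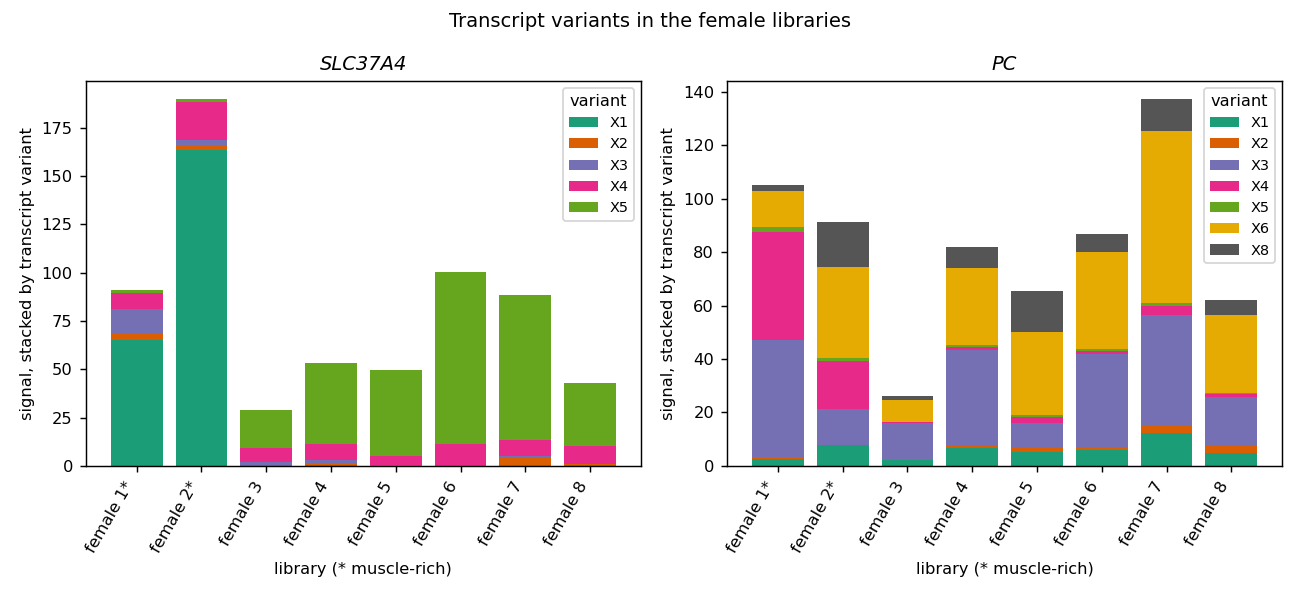
Signal of SLC37A4 and PC in the 8 female libraries, stacked by transcript variant, with asterisks on the muscle-rich libraries. SLC37A4 is mostly variant X5 in the 6 kidney females and mostly variant X1 in female 1 and female 2.

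Further genes of the pathway were taken from lists by role. Of 10 tested genes of the steps shared with glycolysis, of the malate and aspartate shuttle or of isoenzymes of the members, 4 were lower in females and 0 higher (median log2 difference -0.33), a share near the 36.3% of all genes called lower. Among these were the phosphoglycerate mutase PGAM1 (-0.50, limma adjusted p = 0.00711), the mitochondrial aspartate aminotransferase GOT2 (-0.53, limma adjusted p = 0.0122) and GAPDH (-0.65). After median scaling PGAM1 (-0.04), GOT2 (-0.07) and GAPDH (-0.19) did not pass (limma adjusted p = 0.778, 0.619 and 0.494). Of 16 tested genes of substrate supply, 13 were lower and 0 higher (median -1.31), against the same 36.3% of all genes. SLC25A13, the mitochondrial aspartate and glutamate carrier, averaged 10.6 ± 3.02 (SD, n = 6) in females against 28.7 ± 6.62 (SD, n = 8) in males (-1.36, limma adjusted p = 9.08e-05). GK, glycerol kinase, was 9.47 ± 4.96 and 38.3 ± 11.9 (-2.11, limma adjusted p = 0.000469). After median scaling 8 of the 16 stayed lower and 1 was higher, and of the first 10 genes 1 was lower and 2 were higher, while 15% of all genes were lower and 14.7% higher.

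Of 9 tested genes of the opposing glycolytic steps and their control, 3 were lower in females and 0 higher (median -0.24), again near the 36.3% of all genes called lower. PKLR, pyruvate kinase of liver and red cells, averaged 1.27 ± 0.701 (SD, n = 6) in females against 12.9 ± 6.97 (SD, n = 8) in males (-2.52, limma adjusted p = 0.000106). The female mean lay near 1, the filter on low values and the amount added before the log, so the size of the PKLR difference rests on low values. PFKFB2 (-0.91, limma adjusted p = 0.00109), which sets fructose 2,6-bisphosphate, and PFKL (-0.53, limma adjusted p = 0.0202), a phosphofructokinase subunit, were the others. Of 16 tested regulators, 10 were lower and 0 higher (median -0.50), against 36.3% of all genes, among them the deacetylase SIRT1 (-1.21, limma adjusted p = 0.00182) and the insulin receptor substrate IRS1 (-0.74, limma adjusted p = 0.00393). After median scaling 2 genes of the opposing steps were lower and 2 higher, and 3 regulators were lower and 1 higher, beside 15% and 14.7% of all genes. Of the genes named here PKLR, PFKFB2 and SIRT1 stayed lower under that scaling. PFKL (-0.08, limma adjusted p = 0.679) and IRS1 (-0.33, limma adjusted p = 0.140) did not pass.

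The genes most like each member across the 14 kidney libraries, by Pearson's r after centring each sex on its mean, were these, out of 9413. PCK1 was most like HAO2 (0.978), a peroxisomal hydroxyacid oxidase, SLC34A1 (0.976), the phosphate transporter of the proximal tubule and 1 of its markers, and DIO1 (0.974), a thyroid hormone deiodinase. PCK2 was most like ACSF2 (0.989), HNF4A (0.982), a transcription factor of liver and proximal tubule, and HPD (0.976), an enzyme of tyrosine breakdown. G6PC was most like IDO2 (0.964) and GK (0.958), so glycerol kinase of the substrate supply list was among its nearest. FBP1 was most like ACP5 (0.974), LOC101017969 (0.971), annotated as like a liver carboxylesterase, and RENBP (0.966). SLC37A4 was most like ACAA1 (0.963) and CPT2 (0.960), enzymes of peroxisomal and mitochondrial fatty acid oxidation, and LOC103881199 (0.956). PC was most like PEPD (0.973), HDAC6 (0.973) and CRAT (0.970). No member was among the 3 nearest of another. All values share the 14 libraries, and the low female 3 enters each.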

How the data were processed

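Each sex had its own deposited table, in which the authors give a signal for every transcript in every library. Judged from the values, whose minimum is 1, the signal carries an offset of 1. Partek is named in the submitters' processing notes without a role. The aligner, build and scaling are not stated in the sources used here, and whether both tables are on 1 scale was not tested. Coordinates are those of the deposited tables. The male table was held in part (17119 complete rows, all among the 26644 of the female table). Of these, 7 transcripts named no gene (0.754% to 3.21% of signal) and were left out. Tables were joined by transcript identifier, and symbols were taken from the first field of the name.

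The values are not counts, so limma 3.58.1 (R 4.3.3, mean-variance trend) was run on log2(signal + 1) for genes reaching a signal of 1 in 8 or more of the 17 libraries. Fold changes on this scale understate low genes. The ratio to LRP2 subtracted its log2(signal + 1) from every gene. The scripts were tested on simulated data. The 6 members, LRP2, up to 3 called genes per list and direction with the smallest p, and the 3 genes most like each member are named, except a few that are not reported here; GAPDH, G6PC3, FBP2 and the values of single transcripts were added after their values were seen. Members and lists were chosen with earlier results of these data known. Each animal is 1 library, no pair of libraries held identical values, and the labels pair no samples. Alternatives were other pseudocounts (0.1 and 5), filters, scalings, library sets, an age term, references other than LRP2 and leaving out each library; the transcript comparisons and 2 settings without female 3 were added after the data were seen.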

Additional observations from a re-analysis of the deposited data

Results flagged for a closer look

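Within the 6 kidney females, female 3 was far below the others on the log2(signal + 1) scale for 3 genes. PCK1 was 4.03 in female 3 and 7.47 in the next lowest female. PCK2 was 2.15 against 5.35, and G6PC was 0.54 against 3.83. Its proximal tubule marker sum was also the lowest of the females. Within the 8 kidney males, the log2 level of FBP1 relative to LRP2 was -0.80 in male 1 and -0.09 in the next lowest male. Such a gap was found in 4 of 26 sets of values examined. The gaps of female 3 are 1 library seen in 3 correlated genes, so the sets are not independent. Their count therefore cannot be set against the 5% or so of sets that chance gives.

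In data the comparison of the sexes does not use, SLC37A4 variant X1 had a signal of 65.04 in female 1 and 163.4 in female 2, against at most 0.400 in the kidney females. PC variant X4 had 40.4 in female 1 and 18.0 in female 2, against at most 3.53.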

How the results depend on the processing

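The difference between the sexes was negative for each member in all 26 settings, and relative to LRP2 it kept its sign for each member in all 18. These settings reuse the same libraries and are not independent of each other. The smallest differences between the sexes were -0.28 for PCK1 and -0.32 for G6PC, after median scaling without female 3 (limma adjusted p = 0.536 and 0.582). The number of members called was 4 with the 14 kidney libraries (38.6% of all genes called). It was 2 with all 17 libraries (13.6%), 2 against series A males (20.5%) and 0 with age as a term (0.0106%). After median scaling it was 1 (29.6%), also without female 3 (2604 of 9414 genes). Upper quartile scaling gave 1 (2774 of 9414 genes). The number rose to 6 without female 6 (36%), 5 without female 7 (37.9%) and 5 without male 2 (42.6%). Relative to LRP2, leaving out 1 library gave 0 to 2 members called, with 2 without female 3, where 75.6% of all genes were called higher. Genes called between the sexes numbered 1276 with all 17 libraries, 2126 with the stricter filter of 10 (fewer genes tested), 1 with age as a term, 1931 against series A males, and 3087 to 4010 with 1 library left out. The shorter PCK1 transcript relative to the longer was 3.10 with all 17 libraries (adjusted p = 0.408, limma) and 2.98 to 3.67 with 1 library left out. Apart from fewer genes or samples, the cause of these changes was not tested. The correlations with LRP2 were 0.728 to 0.981 with all 17 libraries. No paired analysis was possible because the labels pair no females with males. Read depth is unknown, so no interval for counting error can be given, and low values such as G6PC in female 3 carry the least precision.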

Other observations

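In the authors' deposited tables each transcript carries a co-expression module colour, assigned within a sex. The authors' deposited table of females places LRP2, PCK1 variant X1, PCK2 variant X1, G6PC, FBP1, SLC37A4 variant X5 and PC variant X6 in the pink module, and the authors' deposited table of males places all of them in the blue module. The shorter PCK1 variant X2 is in other modules in the authors' deposited tables, cyan in females and pink in males. The SLC37A4 variant X1 of the muscle-rich females is blue in the authors' deposited table of females. Whether the muscle-rich libraries entered the making of these modules is not given in the sources used here.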
